A study of Drosophila melanogaster with 2 samples.

Results

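Bone morphogenetic protein (BMP) and JAK-STAT signalling were followed through 10 genes of Drosophila melanogaster in 2 RNA-seq libraries. The genes were taken by name from the deposited annotation: dpp, gbb, tkv, sax, put, Mad and Med of the BMP pathway, and hop, dome and Stat92E of the JAK-STAT pathway. Each name matched 1 row of the expression table, so 10 of its 19391 loci, all 10 of them annotated genes, are described here. The groups were whole adult females and whole adult males, aged 3 to 5 days and reared at 25 °C. Each was a single library of polyadenylated RNA in which 200 ng of total RNA from every one of 192 inbred lines had been mixed. These DGRP lines (Drosophila Genetic Reference Panel) were inbred from flies of a natural population, and the values describe their mixture and no single line. No agent or engineered allele is named in the labels.

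In BMP signalling a secreted ligand brings type I and type II receptor kinases together, and the type I kinase phosphorylates the Smad protein Mad, which enters the nucleus with its partner Medea. In the ovary, Dpp and Gbb from the somatic niche keep germline stem cells undifferentiated by shutting off bam. In JAK-STAT signalling an Unpaired ligand binds the receptor Domeless, the kinase Hopscotch is activated, and the transcription factor Stat92E is phosphorylated. In the testis, Unpaired from the hub cells keeps the stem cells in place, and in the ovary the same pathway acts in the somatic niche and in the follicle epithelium. Both pathways also act in many tissues outside the gonads.

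Levels are FPKM, that is fragments scaled to transcript length and library size, so genes can be set side by side within a library. The difference between the sexes is given as log2((female FPKM + 1)/(male FPKM + 1)), called the log2 ratio below, which understates the change of low genes. Positive values mean a higher level in the female library. A gene was counted as higher in 1 library when its log2 ratio was 1 or more in size, which is 2-fold. With 1 library per sex there is no replicate spread and no test, so no difference below is shown to exceed the variation between samples, and the counts describe these libraries only. A lower level in whole flies can mean fewer cells of a type or less RNA per cell, and these cannot be told apart.

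On the values as deposited, the ligands and the other members lay on opposite sides. Of the 10 members, 5 (hop, dome, Mad, sax and Med) passed 2-fold on the female side and 1 (dpp) passed it on the male side. Among all 14108 loci with 1 FPKM or more in either library, 21.5% were at least 2-fold higher in females and 40.7% at least 2-fold higher in males. Among the 13111 annotated genes of that set the shares were 22.7% and 39.3%. The median log2 ratio was 0.83 over the members and −0.58 over all loci tested. All 10 members passed the level filter in both libraries, and against annotated genes that did so the background median was 0.19, with 28.6% of 9588 genes higher in females and 24.5% higher in males. The 8 receptors and intracellular members all had the higher value in females as deposited, and both ligands had the higher value in males. With the medians of ribosomal protein genes set equal, tkv, put and Stat92E were on the male side with the ligands.

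**Figure D1:**
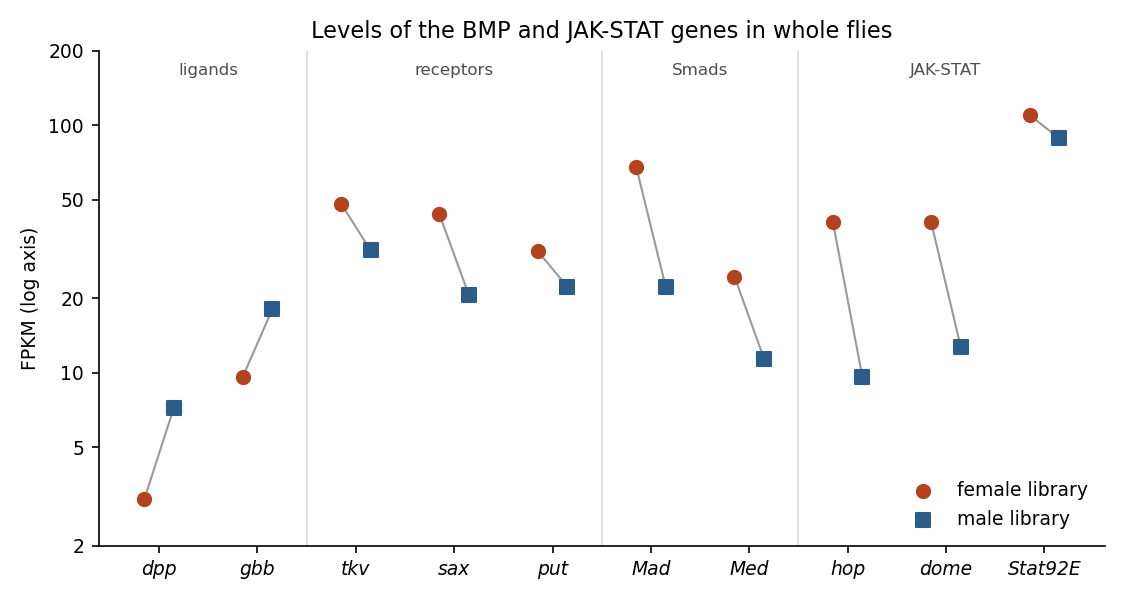
FPKM of each of the 10 members on a log axis, with the female library as circles and the male library as squares, joined by a line, 1 library per sex. The female point is below the male one for dpp and gbb and above it for the other 8, and the steepest line is that of hop (40.7 FPKM in females, 9.65 FPKM in males).

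The ligand gene dpp, which encodes a secreted protein of the BMP2/4 type, lies on 2L (2428372 to 2459823, plus strand, coordinates of the deposited annotation, for which the submitters' processing notes name the build BDGP5). It was listed at 3.09 FPKM in females and 7.22 FPKM in males. This was the lowest level among the members in either sex. The male-to-female ratio of FPKM was 2.34, and the log2 ratio of −1.01 was just past the threshold. The second ligand gene, gbb, which encodes a BMP5/6/7/8-type protein, lies on 2R (19739106 to 19740772). Its level was 9.61 FPKM in females and 18.03 FPKM in males, with a log2 ratio of −0.84, short of 2-fold. Both ligands kept the male-higher direction under every scaling tried, and the smallest differences were those after centring on all loci, −0.43 for dpp and −0.26 for gbb. The 2-fold call of dpp was lost after that centring, with equal FPKM sums (−0.57) and with a pseudocount of 5 (−0.60).

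Each receptor gene was listed above both ligand genes in both libraries, though in males sax and put were not far above gbb. The type I receptor gene tkv (thickveins, 2L, 5218996 to 5271353, minus strand) had 48.2 FPKM in females and 31.2 FPKM in males. For sax (saxophone, 2R, 3693989 to 3697572), which encodes the other BMP type I receptor, the values were 43.6 and 20.6 FPKM in females and males. The type II receptor gene put (punt, 3R, 10444752 to 10451425) had 31.0 FPKM in females and 22.3 FPKM in males. All of the receptors were thus higher in females, with log2 ratios of 1.05 for sax, 0.61 for tkv and 0.46 for put, of which only that of sax passed 2-fold. When the ribosomal protein genes were set equal, the ratios of tkv and put turned to −0.33 and −0.48, and that of sax came to 0.11.

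The Smad genes were both past 2-fold. Mad (Mothers against dpp, 2L, 3146056 to 3159643), the receptor-activated Smad of the BMP branch, had 68.1 FPKM in females and 22.3 FPKM in males. Its female level was 3.06 times the male level (log2 ratio 1.57), the largest difference among the BMP members on the values as deposited; with equal ribosomal protein medians those of dpp (−1.89) and gbb (−1.77) were larger. Med (Medea, 3R, 27436768 to 27441097), the common partner Smad, was lower than Mad in both sexes, at 24.5 FPKM in females and 11.4 FPKM in males (log2 ratio 1.04). The difference of Mad kept its direction but not its size when ribosomal protein genes were set equal (0.63), and that of Med came to 0.13. With a pseudocount of 5 the ratios of Med and sax fell short of 2-fold as well (0.85 and 0.93).

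On the values as deposited, the JAK-STAT members held both the highest level and the largest difference. The Janus kinase gene hop (hopscotch, X, 11254932 to 11262130) had 40.7 FPKM in females and 9.65 FPKM in males, a 4.22-fold difference in FPKM (log2 ratio 1.97). Nearly the same female level was listed for the receptor gene dome (domeless, X, 19570090 to 19577549), with 40.5 FPKM in females and 12.7 FPKM in males (log2 ratio 1.60). Stat92E (3R, 16361045 to 16378033), the only STAT transcription factor of the fly, was at 110.0 FPKM in females and 88.6 FPKM in males. It was the highest member in both libraries, with a log2 ratio of 0.31, the smallest in size as deposited but not under the other scalings: it was 0.81 with equal FPKM sums, 0.89 after centring and −0.65 with ribosomal protein genes set equal. With ribosomal protein genes set equal, hop was the only member still at least 2-fold higher in females (1.07).

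Both X-linked members were past 2-fold as deposited, and the autosomal members ranged from −1.01 to 1.57. The median log2 ratio of annotated X-linked genes with 1 FPKM or more in both libraries was 0.52 over 1556 genes, with 37.2% of them at least 2-fold higher in females. On the autosomes it was 0.13 over 7968 genes, with 27.0% higher in females. The ratios of hop and dome thus stood above the X-linked median too. With 2 such genes nothing particular to the X-linked members can be read from this.

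**Figure D2:**
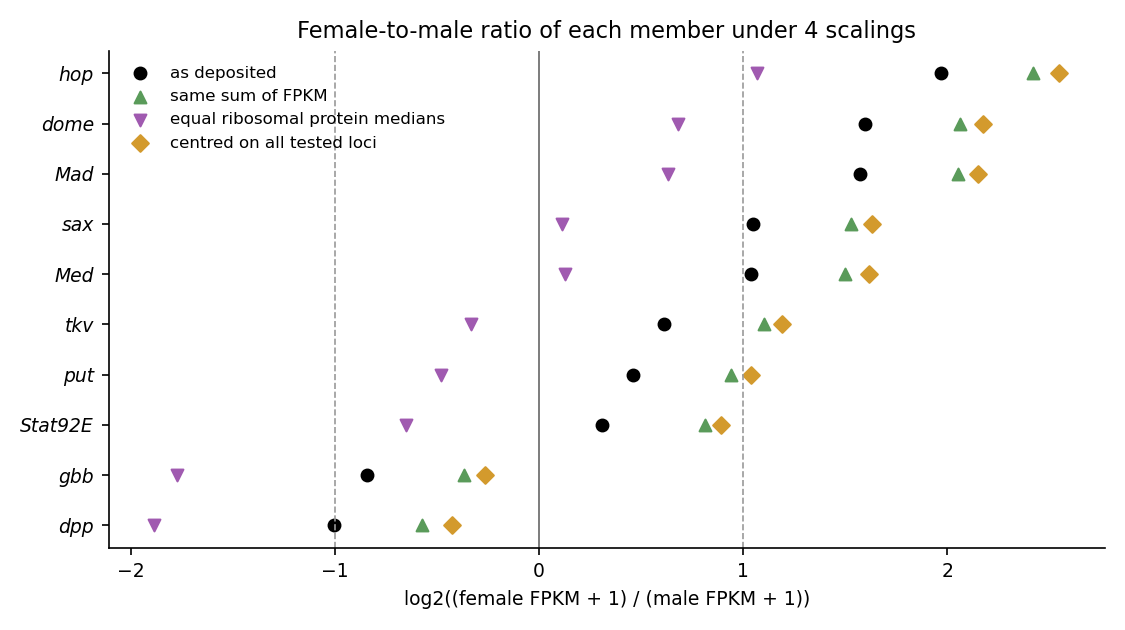
Log2 ratio of female to male FPKM for each member, highest ratio at the top, under 4 ways of scaling the libraries. Dashed lines mark 2-fold. A scaling shifts all members nearly alike, so their order could hardly change, and only sax and Med trade places. Equal ribosomal protein medians place tkv, put and Stat92E below 0 and leave only hop past 2-fold on the female side.

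How far apart the libraries are set depends on the scaling, which moved the median of all loci. That median was −0.58 as deposited, −0.09 with equal FPKM sums and −1.29 with equal medians of the 92 ribosomal protein genes. Female-higher loci made up 34.6% of all calls as deposited, 50.3% with equal sums, 55.4% after centring and 12.7% with equal ribosomal protein medians. The member median was 0.83 as deposited and −0.11 under the ribosomal protein scaling, which was the only alternative with a member median below 0. Under that scaling 5 members had the higher value in females and 5 in males, whatever its size, and 1 and 2 of them passed 2-fold. The members' median lay above that of all loci there too, but a scaling shifts nearly all loci alike, so this could hardly have changed.

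In the female library the order of the levels, highest first, was Stat92E, Mad, tkv, sax, hop, dome, put, Med, gbb and dpp. In males it was Stat92E, tkv, Mad, put, sax, gbb, dome, Med, hop and dpp. With single libraries no spread is known, so it cannot be said which neighbours in these orders differ. Values as close as those of hop and dome in females, or of Mad and put in males (22.28 and 22.27 FPKM), are not ordered in any useful sense. The members spanned 35.6-fold in females and 12.3-fold in males. Stat92E lay above 94.1% of annotated genes in females and 90.1% in males, and dpp lay above 45.3% and 40.8%. The widest gap between the sexes in this rank was that of hop, above 80.1% of annotated genes in females and 46.5% in males.

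**Figure D3:**
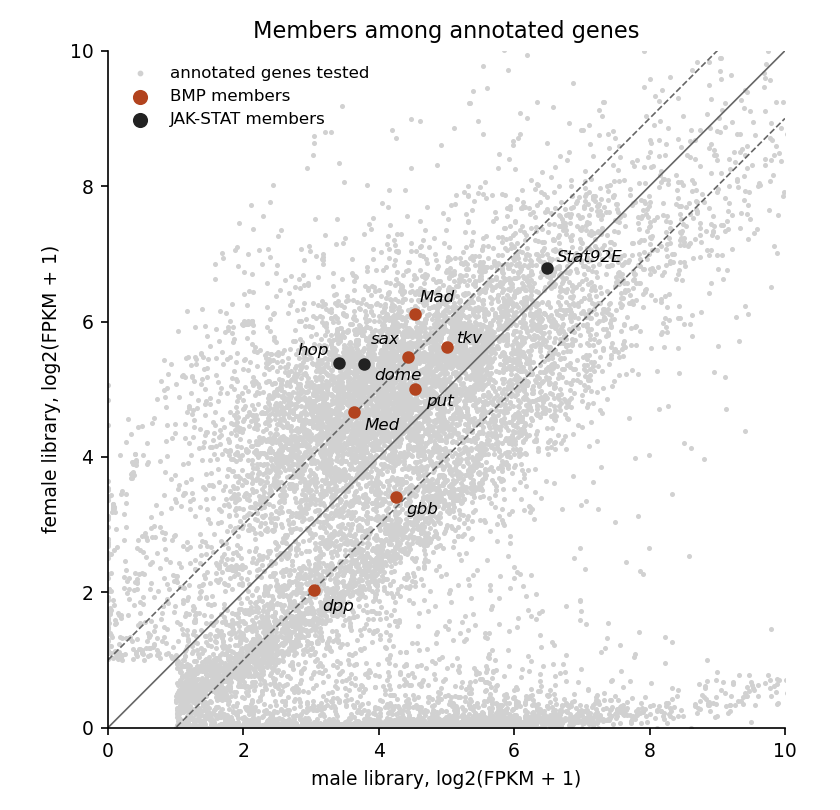
Each of the 13111 annotated genes tested as a grey point, with log2(FPKM + 1) in the female library on the vertical axis and in the male library on the horizontal axis (genes past 10 on either axis are not drawn). The solid line marks equal values and the dashed lines 2-fold; hop, dome and Mad lie above the upper dashed line, sax and Med on it, and dpp on the lower one.

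Ratios of 2 genes within 1 library do not depend on how the libraries are scaled against each other. The receptor gene tkv had 15.6 times the FPKM of dpp in females and 4.32 times in males. Summed, the ligand genes dpp and gbb came to 0.138 of the summed FPKM of tkv and sax in females and 0.488 in males. The balance of ligand to type I receptor transcripts was thus 3.53 times higher in the male library. Within the receptors the shift was smaller: tkv was 1.10 times sax in females and 1.52 times in males, and put was 0.337 of the sum of tkv and sax in females and 0.430 in males. The Smads stood at 2.78 units of Mad to 1 of Med in females and 1.95 in males. Mad had 1.41 times the FPKM of tkv in females and 0.714 times in males, so the order of the 2 genes differed between the libraries.

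In the JAK-STAT pathway the receptor and the kinase had similar levels in each library. The ratio of dome to hop was 0.996 in females and 1.32 in males. Stat92E stood at 2.70 times the FPKM of hop in females and 9.18 times in males, a 3.40-fold higher ratio in males. Against dome it stood at 2.71 in females and 6.95 in males. The 3 components of this pathway therefore did not share 1 ratio between the sexes, whatever the scaling.

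**Figure D4:**
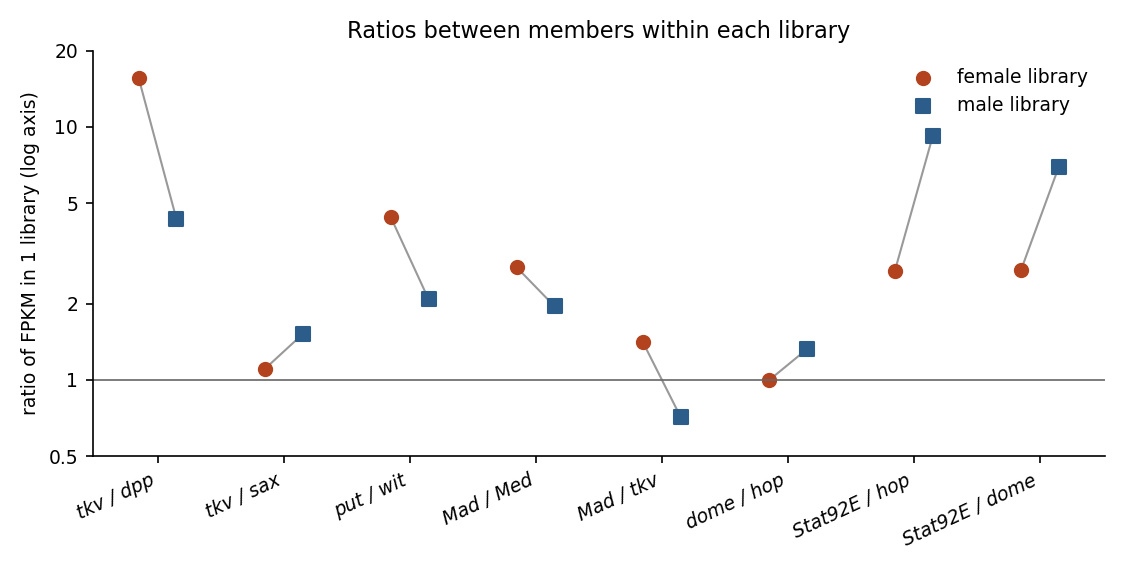
Ratios of FPKM between pairs of pathway genes within the female library (circles) and the male library (squares), on a log axis with a line at 1. The ratio of tkv to dpp is higher in females (15.6, against 4.32 in males) and that of Stat92E to hop higher in males (9.18, against 2.70 in females).

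Other genes of the pathways, of the activin branch and of other niche signals came from lists of 60 genes, together called other pathway genes below. All 60 had a row, and 54 of them passed the level filter. Of these, 16 were at least 2-fold higher in females and 11 in males, with a median log2 ratio of −0.10. The other niche signals, which are not BMP or JAK-STAT genes, gave 4 of the female calls and 1 of the male calls. Among annotated genes tested the shares were 22.7% and 39.3%, and among those with 1 FPKM in both libraries 28.6% and 24.5%. The counts of each list below are to be read beside these shares, and the lists were chosen with earlier results of these data known. For the other pathway genes the counts were 21 and 6 with equal FPKM sums, where 31.3% and 30.9% of all loci passed. They were 6 and 27 with equal ribosomal protein medians, where 8.41% and 58.0% of all loci passed. Regulators of JAK-STAT signalling leaned to one side: 7 of 8 were at least 2-fold higher in females, with a list median of 1.52. They were the bromodomain protein gene BRWD3 (37.8 FPKM in females and 8.86 FPKM in males, log2 ratio 1.98), the nucleosome remodelling factor subunit gene E(bx) (1.93), and the PIAS gene Su(var)2-10 (1.82). Further down came the transcriptional repressor gene ken (1.58), the tyrosine phosphatase gene Ptp61F (1.47), and the suppressors of cytokine signalling Socs44A (1.32) and Socs16D (1.13). All 7 stayed above 0 with equal ribosomal protein medians, where BRWD3 alone still passed 2-fold. The exception was et, which encodes a short receptor related to Domeless that dampens the pathway, at 1.67 FPKM in females and 4.18 FPKM in males (log2 ratio −0.95).

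The JAK-STAT ligands were close to the limit of these data. The Unpaired gene os (also called upd1) was listed at 0.373 FPKM in females and 2.97 FPKM in males (log2 ratio −1.53, or −0.95 after centring). For upd2 the values were 0.106 and 0.127 FPKM, and for upd3 0.192 and 0.247 FPKM, in females and males. Of the 3, only os reached 1 FPKM in a library. The list of targets of the pathway held 5 genes and is not complete, and the repressor gene zfh1 (log2 ratio 1.70) was listed with the BMP genes. Among the 5 listed targets none was 2-fold higher in females and 3 were 2-fold higher in males. These were chinmo, a transcription factor gene needed in somatic stem cells of the testis (1.13 FPKM in females and 10.8 FPKM in males, log2 ratio −2.47), the thioester protein gene Tep2 (−1.18) and the stress gene TotA (−1.09). With equal sums Tep2 and TotA kept their direction but not the 2-fold size (−0.69 and −0.58). The feedback inhibitor Socs36E was at 4.50 FPKM in females and 6.73 FPKM in males (log2 ratio −0.49), which turned to 0.09 after centring on all loci.

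Among the other BMP genes the differences ran both ways, with 5 of 25 tested genes at least 2-fold higher in each sex as deposited. This even count depended on the scaling: 8 genes were higher in females and 3 in males with equal FPKM sums, 8 and 1 after centring, and 3 and 13 with equal ribosomal protein medians, where 26 genes were tested. In the list of ligands and extracellular regulators, 10 of 13 genes were tested. The glypican gene dlp, a cell-surface proteoglycan that binds several signals, had 33.3 FPKM in females and 7.01 FPKM in males (log2 ratio 2.10). The TGF-beta ligand gene mav had 43.3 and 20.8 FPKM in females and males (1.02, or 0.09 with equal ribosomal protein medians). The related glypican gene dally, which promotes Dpp signalling in the ovarian niche, pointed the other way, at 15.8 FPKM in females and 31.9 FPKM in males (−0.96). The ratio of dlp to dally was 2.10 in females and 0.220 in males. Higher in males were the BMP antagonist gene sog (6.002 FPKM in females and 17.4 FPKM in males, −1.40) and the metalloprotease gene tok (6.73 and 17.5 FPKM, −1.26), both short of 2-fold with equal sums (−0.92 and −0.78). The ligand gene scw was at 0.0283 FPKM in females and 0.0972 FPKM in males, the metalloprotease gene tld was below 1 FPKM in both sexes, and tsg was listed at 0 in both.

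Of 7 genes for receptors and transducers, fu alone passed 2-fold as deposited. With equal ribosomal protein medians fu still did (1.10), and wit (−1.45), sgg (−1.26), which encodes the fly GSK3 kinase, and Dad (−1.16) passed it on the male side. The gene fu encodes a kinase of the Hedgehog pathway that also promotes the breakdown of Thickveins in ovarian germ cells. The level of fu was 15.8 FPKM in females and 3.48 FPKM in males (log2 ratio 1.91). The type II receptor gene wit was at 7.04 FPKM in females and 10.7 FPKM in males (−0.54, which turned to 0.04 after centring), so that put exceeded it 4.40-fold in females and 2.09-fold in males. The inhibitory Smad gene Dad, itself a target of Mad, was at 12.4 FPKM in females and 14.8 FPKM in males. Its log2 ratio of −0.24 turned to 0.23 with equal sums. Smurf (named lack in the files) and Sara lay within 2-fold in either direction, at 0.28 and 0.35, and both turned below 0 with equal ribosomal protein medians. In the activin branch, which shares put with the BMP branch, 1 of 5 genes passed as deposited: the ligand gene Actbeta with 2.49 FPKM in females and 8.49 FPKM in males (−1.44). Its call was lost after centring (−0.87) and, narrowly, with equal FPKM sums. The receptor gene babo and the Smad gene Smox of this branch had log2 ratios of 0.82 and 0.71, which passed 2-fold with equal FPKM sums (1.30 and 1.20) and turned to −0.12 and −0.24 with equal ribosomal protein medians. With those medians equal, 3 of the 5 genes were higher in males and none in females.

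The list of BMP target genes and cofactors held the widest contrast among the pathway lists. The differentiation gene bam, which Dpp shuts off in ovarian germline stem cells, was at 21.5 FPKM in females and 0.990 FPKM in males (log2 ratio 3.50). Its partner gene bgcn was at 0.237 FPKM in females and 11.4 FPKM in males (−3.33). The ratio of bam to bgcn was 90.7 in females and 0.0866 in males. For 2 genes whose proteins work as a complex in the germ cells of both sexes, these whole-fly levels were far from parallel. Both directions held under every scaling tried. The repressor gene zfh1, which acts in somatic cells of the testis niche, was also higher in females (20.2 and 5.53 FPKM in females and males, 1.70, or 0.84 with equal ribosomal protein medians). The wing-patterning targets salm and vg were low and higher in males (−1.49 and −1.40, or −0.91 and −0.82 after centring), as was the Dpp-repressed gene brk, short of 2-fold (−0.83), and the cofactor gene shn was at 0.39, or −0.52 with equal ribosomal protein medians.

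Of the genes for other niche signals, 4 of 10 tested were at least 2-fold higher in females and 1 in males as deposited. With equal ribosomal protein medians the counts were 2 and 5 of 11 tested. The rhomboid protease gene stet, needed in germ cells for signalling to the soma through the EGF receptor, had 56.2 FPKM in females and 2.33 FPKM in males (log2 ratio 4.11). The Notch ligand gene Dl had 35.1 FPKM in females and 3.44 FPKM in males (3.03), its receptor gene N had a log2 ratio of 1.15, and the Hedgehog transducer smo one of 1.80. The calls of N and smo were lost with equal ribosomal protein medians (0.35 and 0.95). The signal genes hh and wg were at or under 2.48 FPKM in both libraries. The gene en, expressed in niche cells, was at 0.246 FPKM in females and 2.60 FPKM in males (−1.53, or −0.95 after centring).

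**Figure D5:**
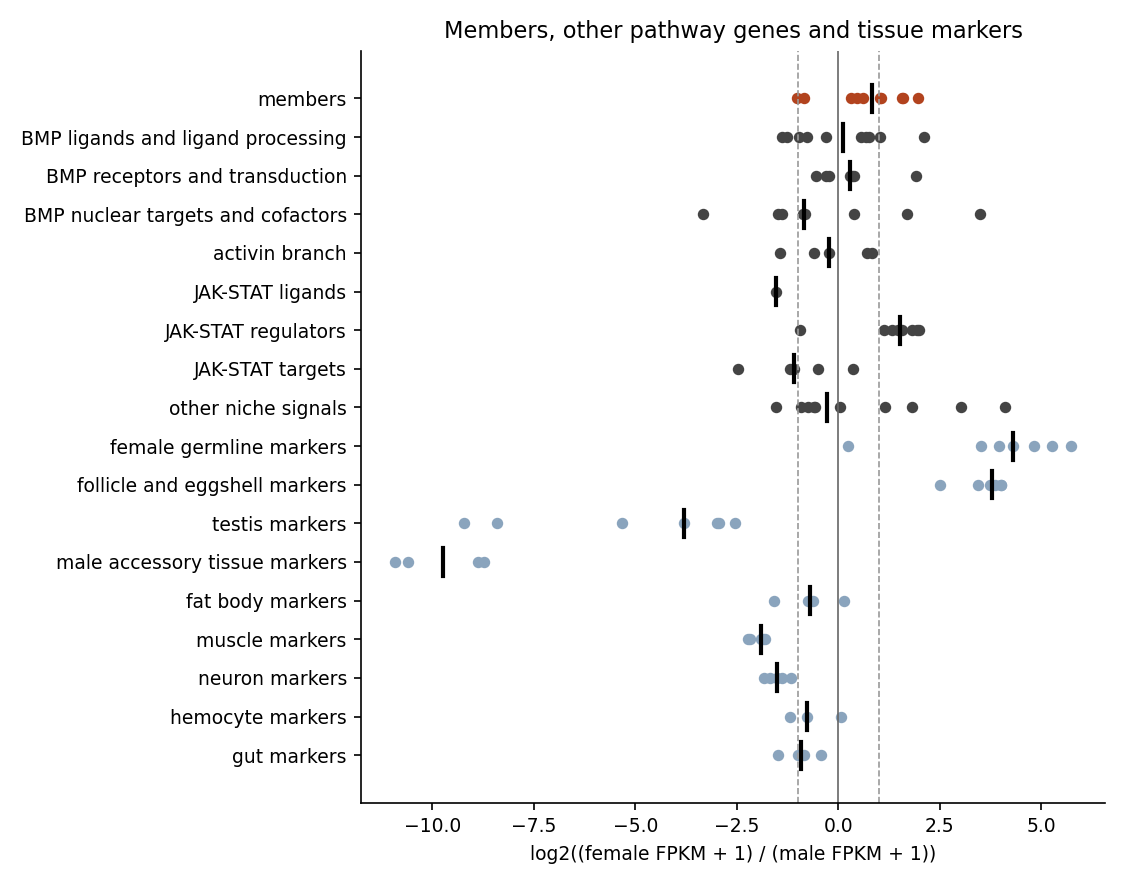
Log2 ratio of female to male FPKM for each gene that passed the level filter, by list, with 1 point per gene and a vertical bar at the list median; dashed lines mark 2-fold. The members (red, median 0.83) and the JAK-STAT regulators (median 1.52) lie mostly to the right of 0, and the gonad markers lie far beyond them on either side.

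Markers of the tissues in a whole fly were present in the libraries and moved with sex. As deposited, all 7 female germline markers were higher in females (summed level 1733 FPKM in females and 195 FPKM in males), 6 of them at least 2-fold, and all 6 follicle and eggshell markers were at least 2-fold higher (1946 and 158 FPKM). The remaining germline marker, orb (log2 ratio 0.24), turned to −0.72 with equal ribosomal protein medians. All 7 testis markers were at least 2-fold higher in males (17.3 FPKM in females and 2132 FPKM in males), as were all 4 accessory tissue markers (3.85 and 10133 FPKM). So were all 5 muscle markers (574 FPKM in females and 2285 FPKM in males) and all 5 neuron markers (61.6 and 207 FPKM). The muscle calls held under every scaling, and the neuron calls fell to 3 with equal FPKM sums and to 2 after centring. Of the fat body, gut and hemocyte markers, 1 each was 2-fold higher in males and none in females, and the fat body gene Fbp1 was near 0 in both libraries (0.0773 and 0.0459 FPKM in females and males). The gut and hemocyte calls were lost with equal FPKM sums and after centring. With equal ribosomal protein medians 3 fat body, 4 gut and 2 hemocyte markers were 2-fold higher in males. The hemocyte marker NimC1 was listed too, but its symbol matched no row, so it has no value here. No marker with a row was at exactly 0 in either library. The part of these tissue differences in the values of the members was not tested.

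Several members overlap their neighbours, and the use of strand in the authors' counting is not given in the sources used here. The reads of overlapping stretches then cannot be told apart. Med overlaps the highly expressed CycG (272 FPKM in females and 196 FPKM in males) over 331 nt, or 9.66% of its exonic length, on the opposite strand. A start exon of tkv overlaps the pseudogene CR14033 (60.7 FPKM in females and 8.19 FPKM in males) over 258 nt, or 5.73%, and the end of tkv overlaps TpnC25D, a troponin C gene (26.0 and 100.1 FPKM), over 60 nt. For hop the overlap with Pa1 was 31 nt. The convergent genes gbb and bgcn overlap by 5 nt. Among the downstream genes, bam shares 224 nt, or 11.8% of its exonic length, with CG11854 (0.509 FPKM in females and 9.47 FPKM in males). No overlap was found for dpp, sax, put, Mad, dome or Stat92E.

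The members differ widely in structure. The deposited annotation gives 4 transcripts of dpp with 4 start sites, 1 end site and a single coding sequence of 1767 nt, spread over 31452 nt of which 16.6% is exonic. The 4 transcripts of tkv each have their own start site and coding sequence, over 52358 nt of which 8.59% is exonic. Stat92E has 11 transcripts from 2 start sites with 7 coding sequences of 1887 to 2457 nt. In contrast, gbb is a single exon of 1667 nt, and hop and dome have 1 transcript each, of 5085 and 4877 nt. Mad has 2 transcripts with different starts, and sax, put and Med have 3 each. No transcript model outside the known ones was added to any member. Among annotated genes, 12.9% had at least 1 such model. At that share a set as small as the members can easily have none, so this does not set them apart. The table gives 1 value per gene, so sex differences between the isoforms of dpp, tkv, Mad or Stat92E are not visible in it.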

How the data were processed

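Whole-body polyadenylated RNA of females and males was measured in 1 library per sex. The authors deposited 1 table of FPKM per locus, a unit known from the table's name, and 1 annotation. The submitters' processing notes name TopHat2 2.0.8, Cufflinks 2.0.2 and the build BDGP5, without roles; strand use and read filters are not given in the sources used here. Names, transcript models and positions were taken from the deposited annotation, and no BDGP6 coordinates were used.

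FPKM were used as deposited. Loci with 1 FPKM or more in either library were tested against a 2-fold threshold after adding a pseudocount of 1; with 1 library per sex there is no p-value. Members were matched by name; members and gene lists were chosen with earlier results of these data known. Named genes were the members, list genes past 2-fold first, and the nearest gene to each member. Alternatives were other pseudocounts, scalings, filters and thresholds.

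Depth was sought in a common step of the low values of loci with 1 transcript and 1000 nt or more. In the female library 56.4% of 383 checked values lay within 0.15 of a whole step (Wilson 95% interval 51.4 to 61.3%), and in the male library 32.2% of 199 (26.1 to 38.9%), against 30% by chance. Whole counts were not recovered, the depth is unknown, and no count test or counting interval is given. The calling step was tested on simulated data with planted 4-fold changes in well-expressed loci, so changes near 2-fold or of low genes were not checked by it. Python 3.11.15, numpy 2.4.6, pandas 2.3.3, scipy 1.17.1 and matplotlib 3.10.9 were used.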

Additional observations from a re-analysis of the deposited data

How the results depend on the processing

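The 10 log2 ratios were recomputed under 9 alternatives. Of the 90 values, 74 kept their direction and side of 2-fold, 9 dropped under it and 4 passed it. The remaining 3 turned: with equal ribosomal protein medians tkv came to −0.33, put to −0.48 and Stat92E to −0.65. Filters on low values cannot change the ratio of a gene, so the values under them were bound to be counted as kept. The member median moved to 0.70 with a pseudocount of 5, to 1.30 with equal sums and to 1.40 after centring, and turned to −0.11 with equal ribosomal protein medians. Members higher in females numbered 5 as reported, 6 with equal sums or at 1.5-fold, 7 after centring, 3 with a pseudocount of 5, 1 with equal ribosomal protein medians and 0 at 4-fold. The share of all loci tested was 21.5% as reported, 31.3% with equal sums, 29.7% at 1.5-fold and 32.7% after centring. It was 16.7% with a pseudocount of 5, 8.41% with equal ribosomal protein medians and 7.60% at 4-fold. Members higher in males numbered 1 as reported, 0 with a pseudocount of 5, with equal sums, after centring or at 4-fold, and 2 with equal ribosomal protein medians or at 1.5-fold. On the male side the share of all loci was 40.7% as reported, 26.4% with a pseudocount of 5, 30.9% with equal sums and 26.3% after centring. It was 20.3% at 4-fold, 58.0% with equal ribosomal protein medians and 49.8% at 1.5-fold. Other pathway genes higher in females numbered 16 as reported, 21 with equal sums or after centring, 20 at 1.5-fold, 6 with equal ribosomal protein medians and 4 at 4-fold. Those higher in males numbered 11 as reported, 18 with a pseudocount of 0.1, 5 with one of 5, 6 with equal sums, 27 with equal ribosomal protein medians, 2 after centring, 7 with 1 FPKM in both libraries, 21 at 1.5-fold and 2 at 4-fold. The male-side share of all loci was 45.3% with a pseudocount of 0.1 and 24.3% with 1 FPKM in both libraries. The other shares are those given with the members. The calls of dpp, sax and Med, all just past 2-fold, were lost with a pseudocount of 5. No paired analysis was possible because each sex has a single library. For the same reason no library could be left out. Depth is unknown, so levels near 0, such as those of the Unpaired genes, scw and bgcn in females, carry an unknown counting error.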

Other observations

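By distance in log2(FPKM + 1) over the 2 libraries, the named genes nearest to each member were found among 5813 candidates. The nearest were CadN to dpp, Pvr to gbb, fal to tkv, mav to sax, GM130 to put, BicD to Mad, ird5 to Med, dgt2 to hop, TH1 to dome and ctrip to Stat92E, at distances of 0.02 to 0.09. With 2 values per gene such nearness is common: 128 candidates lay nearer to hop than dome did, its nearest fellow member, and 1079 lay nearer to Stat92E than tkv did. The members did not form a tight group in these 2 values.

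The long introns of tkv hold other genes on the opposite strand, and apart from the overlapping CR14033 those with a value above 0 were higher in males. The cytochrome P450 genes Cyp4ac1, Cyp4ac2 and Cyp4ac3 were at 8.33, 3.94 and 3.83 FPKM in females and 35.4, 15.8 and 8.61 FPKM in males. The unannotated locus XLOC_000054 was at 0.111 FPKM in females and 3.63 FPKM in males. Within bgcn, the gene wibg, which lies in an intron on the same strand, was at 43.3 FPKM in females and 6.10 FPKM in males, opposite to its host.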
